A study of Rattus norvegicus with 8 samples.

Results

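Genes of the cell division cycle were followed in the sinoatrial node, where the heartbeat starts, of rats with and without a model of heart failure with preserved ejection fraction (HFpEF). The 8 genes were taken from the 32285 genes of the deposited table by identifier. They were Mki67 (ENSRNOG00000028137), Top2a (ENSRNOG00000053047), Cdk1 (ENSRNOG00000000632), Ccnb1 (ENSRNOG00000058539), Ccna2 (ENSRNOG00000015423), Pcna (ENSRNOG00000021264), Ccnd1 (ENSRNOG00000020918) and Cdkn1a (ENSRNOG00000000521). All 8 passed the filter on low counts, which kept 16313 genes. The symbols come with the definition of the gene set, since the table itself lists identifiers only.

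All animals were Dahl salt-sensitive rats of the inbred strain SS/JrHsdMcwiCrl, which becomes hypertensive when fed salt. For 11 weeks the chow held 0.4% NaCl in the Control group (4 libraries) and 8% NaCl in the HFpEF group (4 libraries). Salt intake and the disease model cannot be told apart, because no group had one without the other. Age, sex and the number of animals per library are not given in the labels, so the p-values below measure the spread between libraries. Markers of pacemaker cells and of other cell types were not analysed here, because the identifiers could not be matched to symbols.

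Cells enter the division cycle through D-type cyclins, which activate the kinases that release E2F factors and start the genes of DNA replication. Cyclin A and cyclin B then pair with Cdk1 to drive the end of replication and entry into mitosis, while the inhibitor p21, encoded by Cdkn1a, holds the kinases back. In the adult heart cardiomyocytes divide very rarely, and the transcripts of mitosis are known mainly from fibroblasts, endothelial cells and leukocytes that divide. RNA from whole tissue cannot separate a change in the number of dividing cells from a change in RNA per cell.

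Many genes of mitosis share promoter elements, the CCAAT box bound by NF-Y and the cell cycle genes homology region (CHR) bound by the DREAM and MuvB complexes. The promoters of 6 of the 8 genes matched by symbol in the RefSeq table (build GRCr8), which holds 250 bases before and 50 bases from the gene's start; Ccna2 and Ccnd1 had no entry. Promoters of 4 genes whose levels moved together across libraries are shown with that of Pcna, which varied less. They are Mki67 (chr1:199952544-199952843, minus strand), Top2a (chr10:84473044-84473343, minus strand), Cdk1 (chr20:19265043-19265342, plus strand), Ccnb1 (chr2:33655176-33655475, minus strand) and Pcna (chr3:139955771-139956070, minus strand). Each reads 5′ to 3′ on the gene's strand, and capitals mark CCAAT or its complement ATTGG and TTTGAA (CHR) or its complement TTCAAA.
Mki67: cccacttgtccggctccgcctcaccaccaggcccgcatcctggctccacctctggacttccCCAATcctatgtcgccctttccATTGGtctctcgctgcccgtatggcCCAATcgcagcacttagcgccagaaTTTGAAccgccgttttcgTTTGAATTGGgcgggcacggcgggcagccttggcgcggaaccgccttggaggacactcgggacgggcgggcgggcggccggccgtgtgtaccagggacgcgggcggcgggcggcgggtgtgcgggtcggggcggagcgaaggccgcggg
Top2a: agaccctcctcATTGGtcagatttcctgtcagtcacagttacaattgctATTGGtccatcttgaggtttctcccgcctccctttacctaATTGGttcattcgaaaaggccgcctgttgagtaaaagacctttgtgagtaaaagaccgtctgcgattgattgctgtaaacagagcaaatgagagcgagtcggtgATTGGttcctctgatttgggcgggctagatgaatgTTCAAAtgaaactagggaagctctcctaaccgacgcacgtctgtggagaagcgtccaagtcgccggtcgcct
Cdk1: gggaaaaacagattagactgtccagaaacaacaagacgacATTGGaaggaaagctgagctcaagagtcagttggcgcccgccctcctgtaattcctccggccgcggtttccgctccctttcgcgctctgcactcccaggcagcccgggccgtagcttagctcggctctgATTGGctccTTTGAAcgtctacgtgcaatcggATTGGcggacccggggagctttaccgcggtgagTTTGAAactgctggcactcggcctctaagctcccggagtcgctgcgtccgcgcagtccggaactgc
Ccnb1: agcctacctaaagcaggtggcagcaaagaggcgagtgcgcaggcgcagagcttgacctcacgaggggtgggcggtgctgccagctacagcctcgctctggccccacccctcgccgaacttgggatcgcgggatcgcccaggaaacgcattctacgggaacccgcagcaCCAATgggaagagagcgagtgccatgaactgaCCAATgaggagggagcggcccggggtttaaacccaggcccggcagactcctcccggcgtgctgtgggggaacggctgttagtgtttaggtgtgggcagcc
Pcna: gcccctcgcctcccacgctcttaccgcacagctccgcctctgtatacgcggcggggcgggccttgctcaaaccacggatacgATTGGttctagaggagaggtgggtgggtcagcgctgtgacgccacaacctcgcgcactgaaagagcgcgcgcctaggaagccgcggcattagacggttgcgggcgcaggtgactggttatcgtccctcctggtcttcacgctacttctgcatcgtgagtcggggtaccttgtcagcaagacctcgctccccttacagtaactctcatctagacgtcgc

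CCAAT was found on either strand 4 times in the Mki67 promoter, 4 times in Top2a, 3 times in Cdk1, 2 times in Ccnb1 and 1 time in Pcna. At least 2 matches stood in 11.2% of all 33469 promoters of this length. TTTGAA was found 2 times in Mki67, 1 time in Top2a and 2 times in Cdk1, and not within these windows of Ccnb1 and Pcna, against 18.3% of all promoters with a match. In Mki67 a match to TTTGAA and one to the complement of CCAAT overlapped by 1 base. A match to 1 of the E2F words TTTCCCGC, TTTGGCGC, TTTCGCGC and TTTGCCGC stood only in Cdk1 among the 6 promoters, and in 2.14% of all promoters. The GC box GGGCGG occurred 7 times in Mki67 and once each in Top2a, Cdk1, Ccnb1 and Pcna (33.1% of all promoters). The Mki67 matches at -36, -32 and -28 from the gene's start overlapped. That window held 69.7% G and C, against a median of 51.7% over all promoters. The Cdkn1a window held 0 matches to any of these words, and no other start of this gene was searched.

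The libraries held 31774820 to 38889395 expected counts, the fewest in HFpEF replicate 2. Levels are given as CPM, the count relative to the library's TMM-scaled total. None of the 8 genes was at 0 in any library, where 0 would mean a level below 0.0786 to 0.0948 CPM (3 counts). HFpEF replicate 2 stood apart in the results that follow. It held the highest normalised level of all 8 genes, where 19.1% of the tested genes had their highest level in that library. The unscaled counts of the 8 genes were also highest there. What else differed in that library was not tested.

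The 5 genes of replication end and mitosis, Mki67, Top2a, Cdk1, Ccnb1 and Ccna2, had HFpEF means that were 3.41 to 10.9 times their Control means. The replication clamp Pcna and the G1 cyclin Ccnd1 lay within 1.22 times of Control, and the inhibitor Cdkn1a stood at 2.12 times its Control mean. None of these differences passed edgeR's quasi-likelihood test with Benjamini-Hochberg adjustment over all tested genes at 0.05, so 0 of the 8 genes were called, against a background of 1.94% of the 16313 tested genes. The fitted change was above 0 for all 8 genes, with a median log2 fold change of 1.89 against -0.004 over all tested genes.

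Short of that threshold, 6 of the 8 genes were higher in HFpEF with an unadjusted edgeR p under 0.05, where 11.2% of tested genes were. At an adjusted p under 0.1 edgeR called 4 of them (Mki67, Top2a, Cdk1 and Cdkn1a), against 5.78% of all tested genes. DESeq2 called 6 of 8 at 0.05, all but Pcna and Ccnd1, against 7.65% of tested genes, and limma-voom called 0 of 8, against 1.37%. The tools thus differed over all genes as well as over these. The lowest HFpEF library exceeded the highest Control library in 3 of the 8 genes (Mki67, Top2a and Ccnb1), against 6.74% of tested genes.

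**Figure D1:**
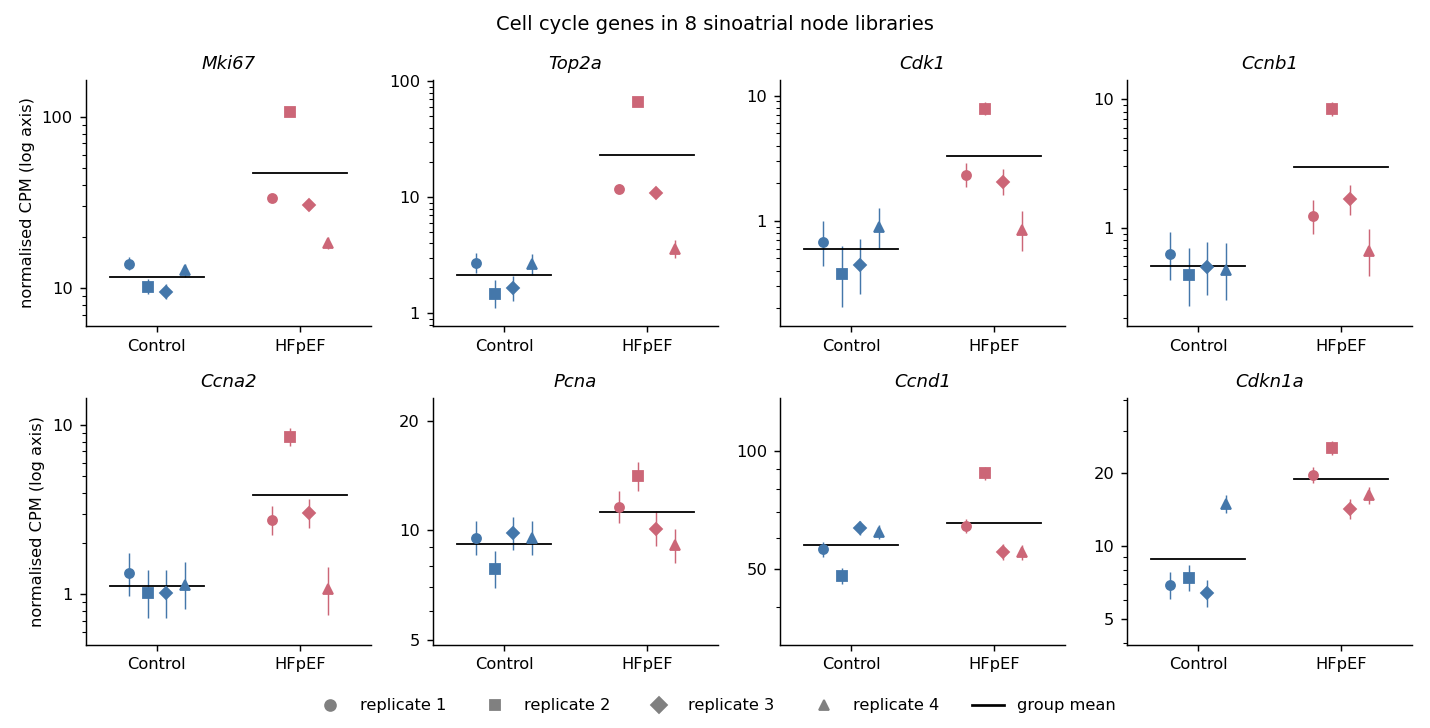
Normalised CPM on log axes of the 8 genes in each library, with exact Poisson 95% intervals as bars and group means as lines. HFpEF replicate 2 is the highest point in every panel, and HFpEF replicate 4 lies near the Control libraries in the first 5.

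Mki67 encodes Ki-67, the nuclear protein used as a marker of dividing cells. It stood at 13.9, 10.2, 9.54 and 12.7 CPM in Control replicates 1 to 4 and at 33.6, 107, 30.4 and 18.4 CPM in HFpEF replicates 1 to 4. The groups did not overlap, but HFpEF replicate 2 alone held 56.4% of the summed HFpEF level. The group means were 11.6 ± 2.04 and 47.2 ± 40.1 CPM (SD, n = 4 each). This is 2.03 on the log2 scale, with a standard error (SE) of 0.50 (edgeR adjusted p = 0.0758). In 7 of the 8 libraries its count was not whole, so RSEM had shared out some of its reads with other genes.

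Top2a encodes topoisomerase IIα, which untangles replicated DNA and condenses chromosomes before they separate. Its level was 2.73, 1.48, 1.65 and 2.64 CPM in Control replicates 1 to 4. In HFpEF replicates 1 to 4 it was 11.8, 66.0, 10.9 and 3.61 CPM. The groups did not overlap, although HFpEF replicate 4 lay only just above the highest Control library. Its fitted log2 change, 3.44 (SE 0.84), was the largest of the 8 genes (edgeR adjusted p = 0.0757). Of all tested genes, 18 including Top2a itself had a fold change as large or larger.

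Cdk1, the kinase that starts mitosis, had few reads in Control, with 25, 14, 17 and 32 counts in replicates 1 to 4. HFpEF replicates 1 to 4 gave 85, 250, 68 and 31 counts. Scaled, these were 0.376 to 0.891 CPM in Control and 2.33, 7.90, 2.06 and 0.847 CPM in HFpEF. HFpEF replicate 4 fell inside the Control range. Control averaged 0.597 ± 0.234 CPM and HFpEF 3.28 ± 3.15 CPM (SD over 4 libraries), with a log2 change of 2.45 (SE 0.65; edgeR adjusted p = 0.091).

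Ccnb1 encodes cyclin B1, the partner of Cdk1 in mitosis. Its counts were 23, 16, 19 and 17 in Control replicates 1 to 4 and 45, 265, 55 and 24 in HFpEF replicates 1 to 4. The lowest HFpEF library, at 0.656 CPM, lay just above the highest Control library, at 0.623 CPM, and their Poisson 95% intervals (0.420 to 0.976 and 0.395 to 0.934) overlapped almost wholly. The lack of overlap between groups is therefore not resolved at this depth. On the log2 scale HFpEF exceeded Control by 2.54 (SE 0.76; edgeR adjusted p = 0.123).

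Ccna2 encodes cyclin A2, which acts from replication to early mitosis. Counts were 49, 38, 39 and 41 in Control replicates 1 to 4 and 100, 270, 100 and 39 in HFpEF replicates 1 to 4. HFpEF replicate 4, at 1.07 CPM, lay within the Control range of 1.02 to 1.33 CPM. The groups differed by 1.76 on the log2 scale (SE 0.54; edgeR adjusted p = 0.13).

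Pcna encodes the sliding clamp that holds DNA polymerase on its template and also serves DNA repair. It stood at 9.53, 7.82, 9.82 and 9.55 CPM in Control replicates 1 to 4 and at 11.6, 14.1, 10.1 and 9.10 CPM in HFpEF replicates 1 to 4. The groups overlapped through HFpEF replicate 4. A log2 change of 0.29 had a 95% interval of -0.03 to 0.61, so a fold of up to 1.52 lies within it (edgeR adjusted p = 0.294).

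Ccnd1 encodes cyclin D1, which links growth signals to the G1 kinases. Its level was 56.1, 47.9, 63.7 and 62.3 CPM in Control replicates 1 to 4 and 64.5, 87.9, 55.2 and 55.2 CPM in HFpEF replicates 1 to 4. Apart from HFpEF replicate 2, the HFpEF libraries lay in or within 1 CPM of the Control range. Its log2 change was 0.19 with a 95% interval of -0.17 to 0.55 (edgeR adjusted p = 0.54). Its counts were not whole in all 8 libraries.

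Cdkn1a encodes p21, an inhibitor of cyclin-dependent kinases and a target of p53. It stood at 6.90, 7.41, 6.39 and 14.9 CPM in Control replicates 1 to 4. HFpEF replicates 1 to 4 gave 19.7, 25.4, 14.3 and 16.3 CPM. Control replicate 4 lay far above the other Control libraries and just above HFpEF replicate 3, and it was the only Control library inside the HFpEF range. HFpEF exceeded Control by 1.08 on the log2 scale (SE 0.29; edgeR adjusted p = 0.0921). Without Control replicate 4 the difference was 1.45 (SE 0.19), and the gene was then called (edgeR adjusted p = 0.0259), as were 0.951% of tested genes.

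In all 5 mitotic genes HFpEF replicate 2 was highest, HFpEF replicates 1 and 3 followed, and HFpEF replicate 4 was lowest of its group. HFpEF replicate 2 stood at 7.57 to 31.0 times the Control mean, with Ccna2 lowest and Top2a highest. HFpEF replicate 1 stood at 2.43 to 5.57 times that mean and HFpEF replicate 3 at 2.62 to 5.12 times. HFpEF replicate 4 gave 0.945 to 1.70 times the Control mean.

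Some of these steps exceeded counting error. The Poisson 95% interval of HFpEF replicate 2 lay above those of the other HFpEF libraries in 5 of 5 genes. The intervals of HFpEF replicates 1 and 3 overlapped each other in 5 of 5, and those of HFpEF replicate 4 reached a Control interval in 4 of 5, all but Mki67. Both HFpEF replicates 1 and 3 lay above every Control interval in 4 of 5, all but Ccnb1.

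**Figure D2:**
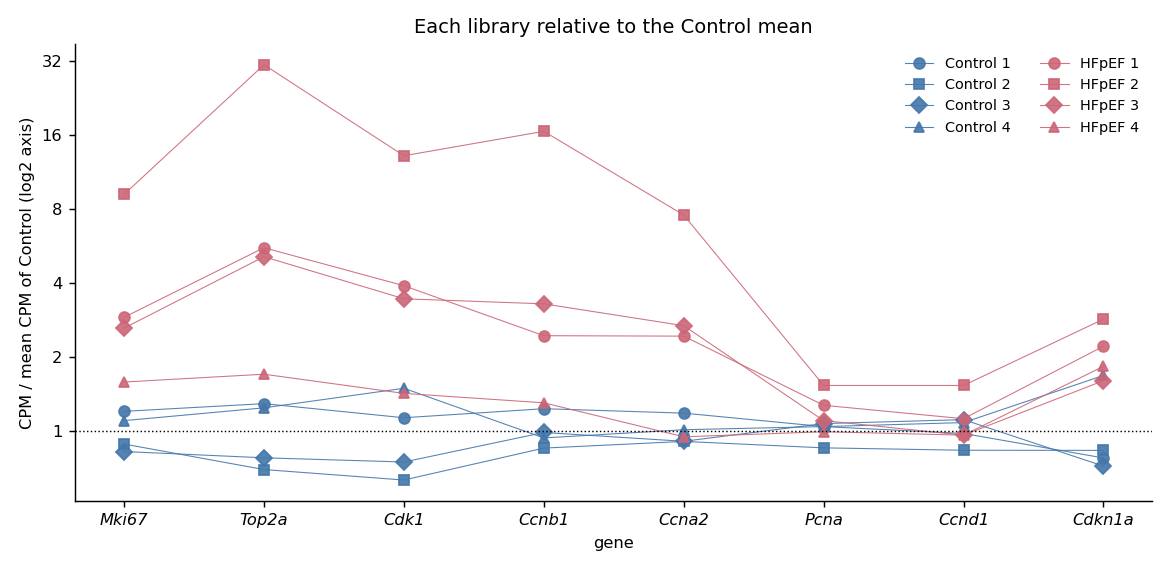
CPM of each gene in each library divided by the Control mean, on a log2 axis; lines join the values of a library. HFpEF replicate 2 reaches 31.0 for Top2a, and HFpEF replicates 1 and 3 run close together. For Pcna and Ccnd1 the libraries lie nearer to 1, with HFpEF replicate 2 highest at 1.53 for both.

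Spread within HFpEF was large for the mitotic genes. The SD of log2 CPM over the 4 HFpEF libraries was 1.07 for Mki67 and 1.72 for Top2a, with Cdk1, Ccnb1 and Ccna2 between them, against a median of 0.176 over all tested genes. Between 97.9% and 99.4% of tested genes spread as much or less in HFpEF. In Control the same 5 genes had SDs of 0.17 to 0.52, with a median over tested genes of 0.128. Pcna and Ccnd1 had HFpEF SDs of 0.27 and 0.32. Cdkn1a differed from the rest in that it spread more in Control (0.56) than in HFpEF (0.36), with Control replicate 4 apart from its group.

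Without HFpEF replicate 2 the log2 fold changes of the mitotic genes were smaller but their spread was smaller too. Mki67 then had 1.25 (SE 0.21) and was called (edgeR adjusted p = 0.0455), as were 1.13% of tested genes. Top2a had 2.05 (SE 0.41) and was not called (edgeR adjusted p = 0.0598). Cdk1 had 1.55, Ccnb1 1.22 and Ccna2 1.01, also without a call. Ccnd1 went to 0.02, which leaves its fitted change resting on that library.

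Without HFpEF replicate 4, the library nearest to Control, the fitted changes were larger. Mki67 reached 2.29 on the log2 scale (edgeR adjusted p = 0.0487) and Top2a 3.80 (edgeR adjusted p = 0.0447), and both were called, against 1.49% of tested genes. With any of Control replicates 1, 2 and 3 left out, 0 of the 8 genes were called, where only 0.133%, 0.54% and 0.145% of tested genes were. Without HFpEF replicate 1 or 3 the count was also 0, against 2.02% and 0.952% of tested genes. So few calls over all genes leave little to read from these counts of 0.

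**Figure D3:**
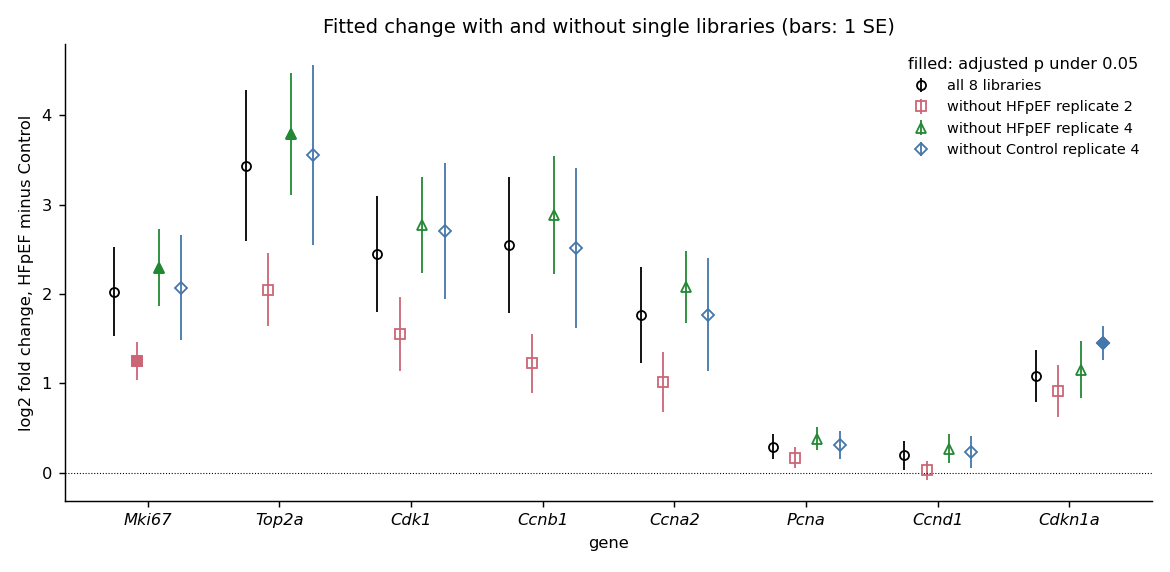
Fitted log2 fold change (HFpEF minus Control) of each gene with 1 standard error, from all 8 libraries and with HFpEF replicate 2, HFpEF replicate 4 or Control replicate 4 left out; filled points are called. Changes of the mitotic genes shrink without HFpEF replicate 2, and of these fits only that without Control replicate 4 calls Cdkn1a.

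The 5 mitotic genes varied together across libraries. For their 10 pairs Pearson's r of log2 CPM over the 8 libraries ran from 0.955 to 0.996 and Spearman's rho from 0.833 to 0.976. All 10 pairs passed by both measures (exact permutation test, two-sided, adjusted over the 28 pairs of the 8 genes; p = 7.44e-05 to 0.00176 before and 0.00208 to 0.00448 after adjustment for r, and 0.000397 to 0.0154 before and 0.0111 to 0.0331 after for rho). The closest pair was Mki67 and Top2a.

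The shift between groups was then removed by subtracting each group's mean. The 10 centred r ran from 0.916 to 0.991. An exact permutation test within groups was passed by 6 of 10 (adjusted p = 0.0365 to 0.0417) and not by the rest (adjusted p = 0.0574 to 0.066). Uncentred r, which keeps the shift between groups, was also taken with libraries left out. Without the 2 libraries farthest from the median, HFpEF replicate 2 with HFpEF replicate 1 or 3, 6 libraries remained. Over these, uncentred r was 0.863 to 0.984 (exact permutation p = 0.00417 to 0.0472, unadjusted). Without HFpEF replicate 2 alone the 10 uncentred r were 0.910 to 0.990, and all 10 still passed (exact permutation, adjusted p up to 0.0394). Centred r without these libraries was not computed. In Control, where the levels were low, replicates 1 and 4 stood above replicates 2 and 3 for Mki67, Top2a, Cdk1 and Ccna2, but not for Ccnb1.

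Pcna, despite its small range of levels, gave r with the mitotic genes of 0.888 to 0.917 (exact permutation p = 0.00134 to 0.00491, adjusted p = 0.00396 to 0.00859) and rho of 0.667 to 0.833 (exact permutation p = 0.0154 to 0.0831, adjusted p = 0.0331 to 0.122). For Mki67, Top2a and Cdk1 the 2 farthest libraries were HFpEF replicates 1 and 2. Without them r fell to between 0.465 and 0.635 (exact permutation p = 0.189 to 0.339), so these relations were not resolved without those libraries. Leaving out the most extreme libraries also narrows the range. The fall in r therefore does not show that these relations rest on those libraries alone. For Ccnb1 and Ccna2 the 2 farthest were HFpEF replicates 2 and 3. Without these r was 0.815 with Ccnb1 and 0.809 with Ccna2, and neither passed over 6 libraries (exact permutation p = 0.0764 and 0.0597). Since different libraries were left out, these values do not show that Pcna relates differently to Ccnb1 and Ccna2. Without HFpEF replicate 2 alone the 5 values of r were 0.686 to 0.791, and none passed the exact permutation test after adjustment. Centred r was 0.823 to 0.893 (exact permutation, adjusted p = 0.0574 to 0.0895).

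Ccnd1 gave r of 0.749 to 0.783 with the mitotic genes (exact permutation p = 0.0289 to 0.047, adjusted p = 0.0385 to 0.0487) and rho of 0.405 to 0.595, none of which passed (exact permutation p = 0.132 to 0.327). Without the 2 farthest libraries r ran from -0.13 to 0.469 (exact permutation p = 0.301 to 0.992). The relation of Ccnd1 to the mitotic genes was therefore not resolved without those libraries, although leaving them out also narrows the range. Without HFpEF replicate 2 alone r was 0.171 to 0.381. With group means subtracted and all libraries kept, it was 0.744 to 0.836, and none passed after adjustment (exact permutation p = 0.0417 to 0.156, adjusted p = 0.0778 to 0.175). Ccnd1 and Pcna gave r = 0.929 with each other (exact permutation p = 0.00228, adjusted p = 0.00491; rho = 0.762, exact permutation p = 0.0368, adjusted p = 0.0572). Their centred r was 0.951, and of the 18 pairs with a gene outside the mitotic group it was the only one that passed (exact permutation, adjusted p = 0.0365). Without Control replicate 2 and HFpEF replicate 2 the uncentred r was 0.551 (exact permutation p = 0.256).

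Cdkn1a gave r of 0.715 to 0.857 with the mitotic genes (exact permutation p = 0.00585 to 0.0341, adjusted p = 0.00964 to 0.0434) and rho of 0.595 to 0.833 (exact permutation p = 0.0154 to 0.132, adjusted p = 0.0331 to 0.168). After subtraction of group means its r was 0.372 to 0.635, and none passed (exact permutation p = 0.0503 to 0.288). Without the 2 farthest libraries the uncentred r was 0.558 to 0.729 (exact permutation p = 0.0958 to 0.186). In Control replicate 4 Cdkn1a stood at 1.68 times its Control mean, while the mitotic genes ran from 0.935 (Ccnb1) to 1.49 times (Cdk1) with a median of 1.10. In HFpEF replicate 4 Cdkn1a stood at 1.83 times, and the mitotic genes ran from 0.945 (Ccna2) to 1.70 times (Top2a) with a median of 1.42. In both libraries Cdkn1a was thus above each of the mitotic genes by this ratio, most of which were also above their Control means. HFpEF replicates 1, 2 and 3 had the reverse order, with Cdkn1a at 2.21, 2.85 and 1.60 times. The lowest mitotic gene there stood at 2.43, 7.57 and 2.62 times. Control replicate 4 raises the Control mean of Cdkn1a, which lowers all of its ratios.

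**Figure D4:**
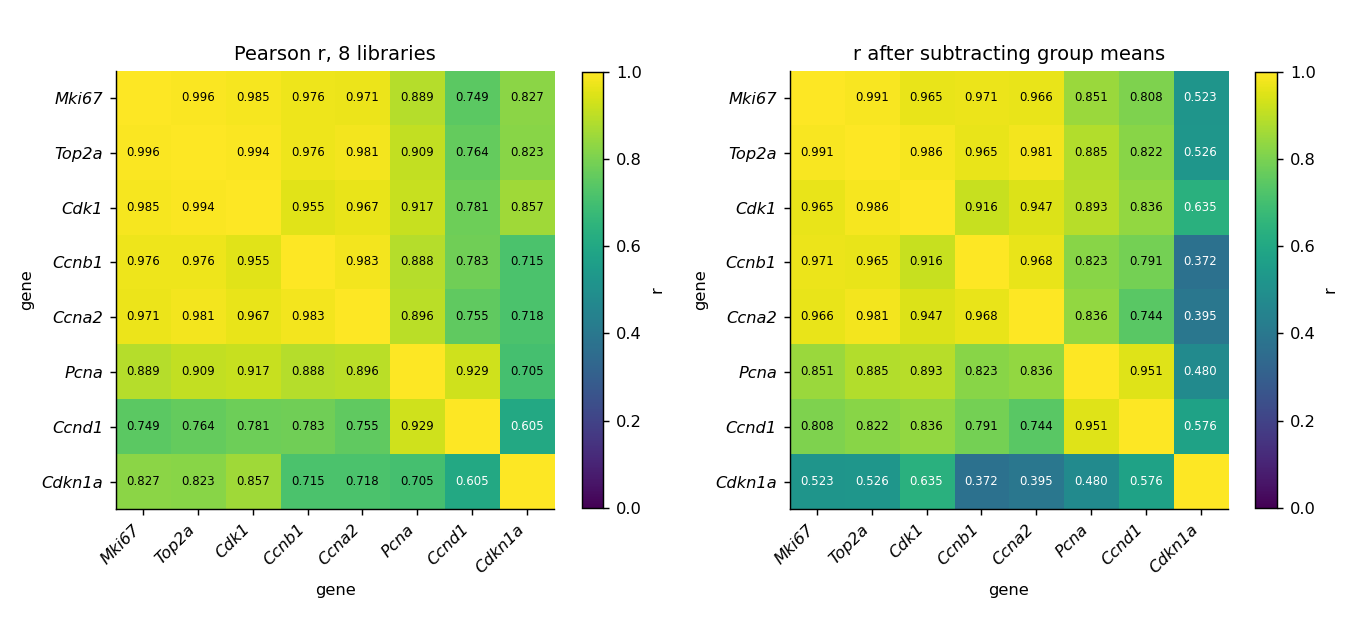
Pearson's r between log2 CPM of each pair of genes over 8 libraries (left) and after each group's mean was subtracted (right), on a color scale from 0 to 1. The 5 mitotic genes form a block above 0.9 in both, and the row of Cdkn1a is the lowest after subtraction.

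Other genes also followed the mitotic genes across libraries. Each of the 14298 other tested genes with a mean of at least 1 CPM was correlated over the 8 libraries with the mean standardised level of the 5 mitotic genes, as a description without a test. All points share the same libraries and depth. An r of at least 0.9 was reached by 229 genes (1.60%) and at least 0.95 by 92 (0.643%), while the median r was -0.0105. An r of -0.9 or lower was about as common, in 234 genes. The r of Pcna, 0.908, was matched or exceeded by 1.38% of these genes, that of Cdkn1a, 0.795, by 5.45%, and that of Ccnd1, 0.773, by 6.54%.

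The mean mitotic profile peaks in HFpEF replicate 2, so the choice by r fixes the order of libraries in these genes. The closest was ENSRNOG00000012318 (r = 0.9966), at 2.75 to 4.01 CPM in Control and 7.95, 23.9, 8.57 and 4.45 CPM in HFpEF replicates 1 to 4. The next was ENSRNOG00000005936 (r = 0.9947), at 1.61 to 2.33 CPM in Control and 3.65, 10.2, 3.90 and 2.46 CPM in HFpEF replicates 1 to 4. Neither was called between the groups (edgeR adjusted p = 0.0968 and 0.13).

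**Figure D5:**
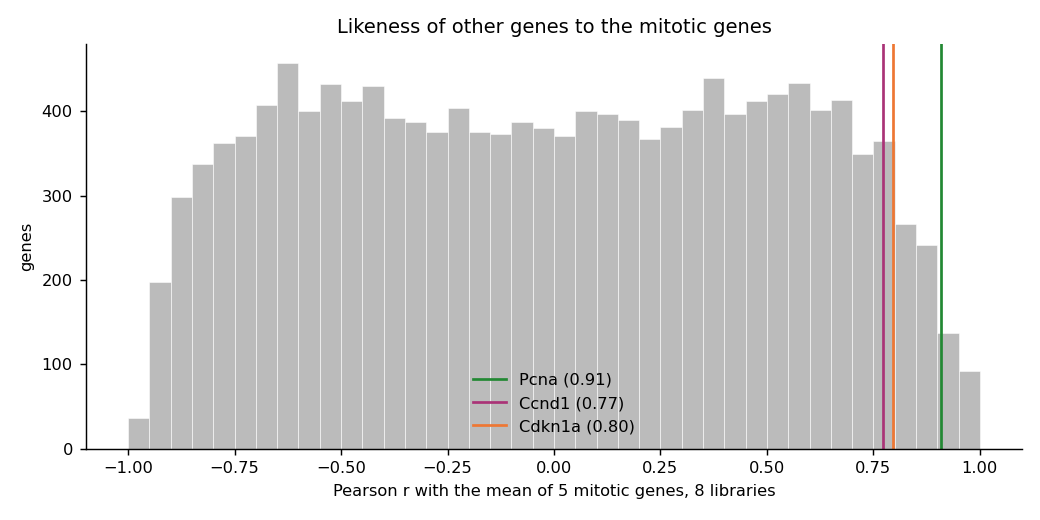
Number of the 14298 other genes at each Pearson's r with the mean standardised level of the 5 mitotic genes over 8 libraries, with vertical lines at the r of Pcna, Ccnd1 and Cdkn1a. Values spread widely between -1 and 1, with 229 genes at 0.9 or above and 234 at -0.9 or below.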

How the data were processed

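The deposited table holds expected counts per gene, estimated by the authors with RSEM 1.2.15 and Bowtie2 2.1.0 on rn6 per the submitters' processing notes, without normalization. Libraries were made from total RNA after ribosomal RNA depletion, per the labels' protocols. The annotation release is not given in the sources used here, and nor is the strand setting. Counts were rounded, filtered with filterByExpr (16313 of 32285 genes kept) and scaled by TMM; CPM are from these totals, and log2 CPM use a prior count of 2. The groups were compared in edgeR 4.0.16 (R 4.3.3) by its quasi-likelihood test, two-sided, with Benjamini-Hochberg adjustment over all tested genes at 0.05. Intervals of fold changes use that test's degrees of freedom. Poisson intervals are exact, at 95%, and cover counting error only. Correlation p-values used all 40320 pairings, or 576 arrangements within groups. A count was taken as whole within 0.005. The scripts were tested on simulated data.

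Other settings tried were limma-voom (limma 3.58.1), DESeq2 1.42.0, RLE and upper quartile scaling, no filter, a filter at a mean of 1 CPM, robust = TRUE, a threshold of 0.1, the replicate block, a prior count of 0.5, and each library left out. The genes, lists and tests were chosen with earlier results of these data known. The 5 named mitotic genes were grouped by function. Rules named all 8 genes and the 5 closest others, of which the closest 2 are printed by identifier. Lists of other cell cycle genes and cell type markers, fixed by symbol, were not run, because 0 identifiers matched the RefSeq gene table (GRCr8). Within a group, counts of any pair of libraries differed beyond Poisson error (chi-square at least 19.56 per gene), so none was counted as a copy. The replicate numbers were not taken to pair libraries.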

Additional observations from a re-analysis of the deposited data

Results flagged for a closer look

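Among 16 sets of 4 values (8 genes in 2 groups, in CPM), Dixon's test found 4 with a library standing apart. Chance flags about 1 in 20 independent sets. These sets share the same libraries, so the count of 4 cannot be read as an excess over chance. HFpEF replicate 2 stood above the rest of its group at 66.0 CPM for Top2a and 8.38 CPM for Ccnb1. Control replicate 2 stood below its group at 7.82 CPM for Pcna. Control replicate 4 stood above its group at 14.9 CPM for Cdkn1a. Mki67 in HFpEF came just short of the critical value, with a gap of 0.827 of the range.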

How the results depend on the processing

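The count of called genes among the 8 was also 0 under RLE and upper quartile scaling, both other filters, limma-voom, robust = TRUE and the replicate block. Over all tested genes these settings called from 6 (replicate block) to 322 (RLE scaling). Little can therefore be read from these counts of 0. DESeq2 called 6 of 8, against 7.65% of tested genes, and edgeR at a threshold of 0.1 called 4, against 5.78%. With 1 library left out, 0 to 2 were called, against 0.133% to 2.02% of tested genes. All 128 fitted changes of the 8 genes over 16 alternatives were above 0, and 10 of them passed an adjusted p of 0.05. DESeq2 gave 6 of the 10, and fits with 1 library left out gave the rest. The alternatives refit the same libraries, so the 128 values are not separate evidence. None of the 8 genes passed in the main comparison, where 316 of all tested genes did. There, 3191 tested genes had an unadjusted edgeR p under 0.05, among them 6 of the 8 genes. Leaving out 1 library moved the log2 fold change of Top2a from 2.05 to 3.80 and that of Ccnd1 from 0.02 to 0.27.

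Over all tested genes edgeR called 316, with 943 at a threshold of 0.1, 1248 by DESeq2 and 22 to 332 with 1 library left out; the cause was not tested. With the replicate block edgeR called 6 genes and 0 of the 8. Deviations of same-numbered libraries correlated at -0.022, -0.056, 0.068 and -0.162, so the numbers were not taken as pairs. Subtracting replicate and group means gave a median r of 0.99 over the mitotic pairs. That step makes each HFpEF value the exact negative of the same-numbered Control value. Few independent values remain, so little can be read from this r.

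Of the 28 pairs, 27 passed by Pearson's r, 14 by Spearman's rho and 7 with group means subtracted. With 1 library left out 10 to 26 passed; the lowest came without HFpEF replicate 2, when only the 10 mitotic pairs did. The median r of those 10 pairs was 0.978 and lay between 0.952 and 0.989 with 1 library left out. Depth limits Cdk1 and Ccnb1 most, with 14 to 32 and 16 to 23 counts per Control library.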
